A study of Penicillium oxalicum with 18 samples.

Results

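CreA, XlnR, ClrB and AmyR are the transcription factors that the literature on Penicillium oxalicum strain 114-2 ties to the cellulase, xylanase and amylase genes. They were taken as 4 gene models of 9176 in the deposited table, by the locus tags which that literature gives them: PDE_03168 for CreA, PDE_07674 for XlnR, PDE_05999 for ClrB and PDE_03964 for AmyR. The selection rule uses only these locus tags and no measured value, although the set was proposed with earlier results of these data known. The table itself pairs no locus tag with a gene name. All 4 had values above 0 in each of the 18 libraries.

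Filamentous fungi that live on plant matter make secreted hydrolases in response to the carbon source, and they do so through a small set of DNA-binding regulators. CreA is the zinc-finger repressor of carbon catabolite repression, which holds back genes for poorer carbon sources while a preferred sugar is at hand. XlnR, ClrB and AmyR belong to the fungal zinc-cluster family of activators: XlnR is known for xylanase genes, ClrB for cellulase genes as the counterpart of CLR-2 of Neurospora, and AmyR for the amylases that break down starch. Vib1 is a further transcription factor, known from Neurospora for heterokaryon incompatibility and for the production of extracellular enzymes. By its title, the study asked how Vib1 bears on development and on cellulolytic genes.

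The samples were mycelia of a vib1 deletion strain and of the wild-type strain 114-2, each with 3 libraries in each of 3 media, 18 in all. The media held 1% bran plus 1% microcrystalline cellulose, 2% N-acetylglucosamine (GlcNAc, the monomer of chitin) or 2% glucose. By the growth protocol, cultures had first grown for 24 h at 30 °C with 2% glucose and were then moved for 24 h to their medium. The protocol describes the move to glucose and to bran plus cellulose. The GlcNAc medium comes from the sample labels, and the same start on glucose and the same 24 h were taken to hold for it. Whether the deletion strain was 1 transformant, and whether replicates were separate cultures, is not given in the sources used here, so the p-values measure the spread between these libraries, which may be technical.

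Levels are in FPKM (fragments per kilobase of a gene model, scaled to the library), with totals of 915800 to 1119000 per library. Read depth is unknown. The third wild-type library of bran plus cellulose, replicate 3, stood apart from its group more than any other library, with a residual spread over all tested gene models of 0.384 on the log2 scale, against 0.211 to 0.358 in the other 17. The log2 differences, the order of the levels and their ranges that use this group are therefore also given without that library. The vib1 gene itself could not be looked up in a table without gene names, so the strain labels have no check from the deleted gene. In bulk mycelium, fewer cells that express a gene and less RNA per cell cannot be told apart.

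Without vib1, all 4 regulators were higher on both sugars and none was called different on bran plus cellulose. For AmyR the strain difference was not called different between any media with all 18 libraries, as given further on. A gene model was called at a limma adjusted p under 0.05, from 1 fit of log2(FPKM + 1) to the 18 libraries. Errors are SD over 3 libraries for FPKM and ratios, and SE of that fit for log2 differences. In GlcNAc 4 of 4 regulators were called higher in the deletion strain, where 44.8% of the 8455 tested gene models were, and for 4 of 4 the libraries of the strains did not overlap, as for 81.5% of tested gene models. In glucose 4 of 4 were called higher as well (42.1% of tested gene models), again with no overlap for 4 of 4 (67.2%). The glucose calls of CreA and XlnR depended on the scaling, and relative to the median gene they ended. Rescaling libraries to the same total kept them, with log2 differences of 0.53 for CreA and 0.55 for XlnR (limma adjusted p = 0.00866 and 0.000131). In bran plus cellulose 0 of 4 were called, against 26.7% of tested gene models, or 15.6% of 8016 in a fit of only the groups compared. An unadjusted limma p under 0.05 was found there for 2 of the 4, AmyR with 0.0147 and XlnR with 0.0346, and for 38.6% of tested gene models. The median of the 4 log2 differences was 1.49 in GlcNAc, 0.69 in glucose and −0.01 in bran plus cellulose, and over all tested gene models the median was 0.20, 0.18 and 0.01 in the same media.

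**Figure D1:**
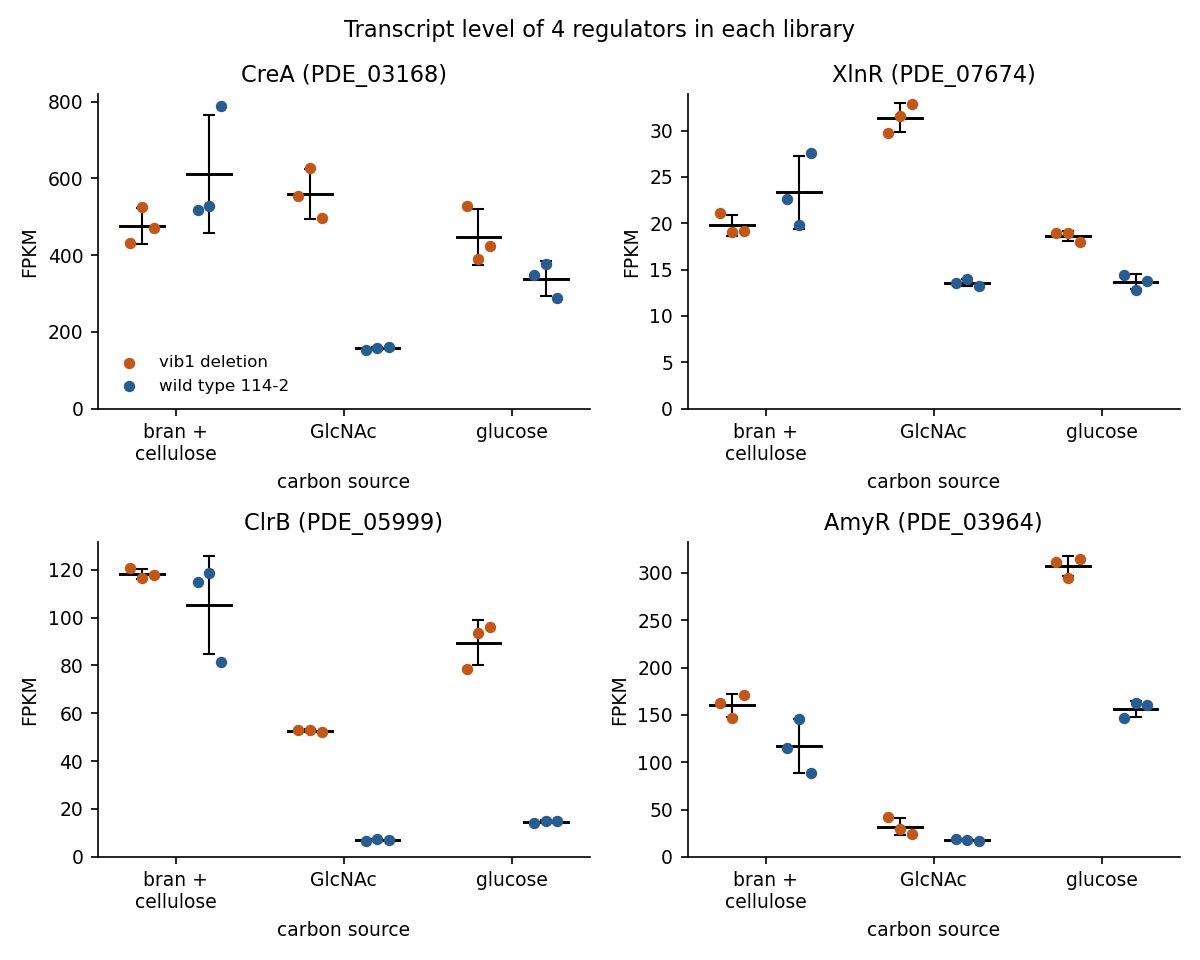
FPKM of each regulator in each library by carbon source, in its own panel, with vib1 deletion libraries in orange left of wild-type libraries in blue; horizontal lines are means and bars are SD (n = 3). In GlcNAc and in glucose each deletion library lies above each wild-type library for all 4 regulators, and AmyR is lowest in GlcNAc in both strains.

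CreA, the repressor, had the highest FPKM of the 4 in all 6 groups. On GlcNAc it was several times higher in the deletion strain. In GlcNAc it had 553, 627 and 498 FPKM in deletion libraries, against 153, 157 and 161 FPKM in wild-type libraries. The groups were far apart: the means were 559 ± 64.9 FPKM in the deletion strain and 157 ± 4.32 FPKM in wild type (SD, n = 3 each), 3.56 times as high, and the log2 difference was 1.82 ± 0.160 (SE; limma adjusted p = 7.08e-08). In glucose CreA had 528, 389 and 424 FPKM in deletion libraries, against 349, 378 and 288 FPKM in wild-type libraries. These groups lay close, with the lowest deletion library just above the highest wild-type library, and the log2 difference of 0.40 ± 0.160 only just passed (limma adjusted p = 0.0403). The call ended with the replicate number as a block (limma adjusted p = 0.0573), in a fit of only the groups compared (limma adjusted p = 0.0622), and on leaving out deletion replicate 1 (0.27) or 3 (0.43) or wild-type replicate 1 (0.43) or 3 (0.29). After median-ratio rescaling, which sets it against the median gene, it was 0.20 and was not called (limma adjusted p = 0.347). In bran plus cellulose CreA had 432, 527 and 470.0 FPKM in deletion libraries, against 518, 528 and 788 FPKM in wild-type libraries, and the ranges overlapped. The log2 difference there was −0.34, with a 95% interval from −0.68 to 0.01 (limma adjusted p = 0.136), and −0.14 without wild-type replicate 3, the library at 788 FPKM.

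In wild type CreA followed the medium. It averaged 611 ± 153 FPKM in bran plus cellulose and 338 ± 45.9 FPKM in glucose, a log2 difference of 0.83 ± 0.160 (limma adjusted p = 0.000589), which was 0.64 without wild-type replicate 3 of bran plus cellulose and still called. GlcNAc against glucose gave −1.09 ± 0.160 (limma adjusted p = 3.56e-05), so wild-type CreA was lower on GlcNAc than on glucose. In the deletion strain the means were 476 ± 47.7 FPKM in bran plus cellulose, 559 ± 64.9 FPKM in GlcNAc and 447 ± 72.1 FPKM in glucose, and none of the 3 pairs of media was called. The log2 differences in the deletion strain were 0.10 for bran plus cellulose against glucose (95% interval −0.24 to 0.44), 0.33 for GlcNAc against glucose (−0.01 to 0.67) and −0.23 for bran plus cellulose against GlcNAc (−0.57 to 0.11). The limma adjusted p-values of these 3 pairs were 0.618, 0.0819 and 0.215. GlcNAc against glucose was called in the deletion strain without its glucose replicate 1 (0.45, limma adjusted p = 0.0271). It was also called without wild-type replicate 3 of bran plus cellulose (limma adjusted p = 0.0301). That library does not enter this log2 difference, only the shared spread, the filter and the adjustment. The highest and the lowest group mean were 0.33 log2 units apart in the deletion strain and 1.93 apart in wild type. Of all tested gene models, 88.6% had a larger range across media than CreA in the deletion strain, and 11.05% had a larger one in wild type. Without wild-type replicate 3 of bran plus cellulose the wild-type range was 1.73, and 13.5% had a larger one.

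XlnR, the activator known for xylanase genes, had the lowest mean FPKM of the 4 in all groups but wild type on GlcNAc. Its libraries overlapped those of AmyR in the deletion strain on GlcNAc, where AmyR averaged 32.0 FPKM. They overlapped those of ClrB in wild type on glucose. XlnR also had the narrowest range over the 6 groups. In GlcNAc it had 29.8, 31.6 and 32.9 FPKM in deletion libraries, against 13.6, 13.96 and 13.2 FPKM in wild-type libraries. The deletion libraries were all above 29 FPKM and the wild-type libraries all below 15 FPKM, and the log2 difference was 1.15 ± 0.0932 (SE; limma adjusted p = 2.85e-08). In glucose XlnR had 19.0, 19.0 and 17.95 FPKM in deletion libraries, against 14.5, 12.8 and 13.8 FPKM in wild-type libraries, again without overlap. The log2 difference of 0.42 ± 0.0932 was called (limma adjusted p = 0.0011), but relative to the median gene it was 0.23 and was not (limma adjusted p = 0.0593). On bran plus cellulose XlnR had 21.1, 19.1 and 19.2 FPKM in deletion libraries, against 22.6, 19.8 and 27.6 FPKM in wild-type libraries. The ranges overlapped, and the log2 difference was −0.22 with a 95% interval from −0.42 to −0.02 (limma adjusted p = 0.0991). It was −0.10 without wild-type replicate 3, and without wild-type replicate 2 it was −0.32 and called (limma adjusted p = 0.016).

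The medium in which XlnR was highest differed between the strains. In the deletion strain it was GlcNAc, with a mean of 31.4 ± 1.54 FPKM, against 18.6 ± 0.586 FPKM in glucose (log2 difference 0.72 ± 0.0932, limma adjusted p = 5.85e-06). In wild type it was bran plus cellulose, with 23.3 ± 3.91 FPKM, against 13.7 ± 0.818 FPKM in glucose (log2 difference 0.72 ± 0.0932, limma adjusted p = 1.89e-05). In wild type GlcNAc and glucose gave nearly the same XlnR level, with means of 13.6 and 13.7 FPKM and a 95% interval of the log2 difference from −0.21 to 0.19. Bran plus cellulose against GlcNAc thus had opposite signs in the strains, −0.64 ± 0.0932 in the deletion strain and 0.73 ± 0.0932 in wild type, both called (limma adjusted p = 2.05e-05 and 8.64e-06).

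ClrB, the activator known for cellulase genes, had the largest strain difference of the 4 on both sugars. In GlcNAc it had 52.9, 53.1 and 52.2 FPKM in deletion libraries, against 6.66, 7.49 and 7.01 FPKM in wild-type libraries. The means of 52.7 ± 0.497 FPKM in the deletion strain and 7.05 ± 0.417 FPKM in wild type differed 7.48-fold, and the log2 difference was 2.74 ± 0.113 (SE; limma adjusted p = 1.83e-11). In glucose it had 78.7, 93.7 and 96.0 FPKM in deletion libraries, against 14.2, 15.1 and 15.1 FPKM in wild-type libraries. The ratio of these means was 6.06 and the log2 difference 2.52 ± 0.113 (limma adjusted p = 5.27e-11). Relative to the median gene the differences were 2.50 in GlcNAc and 2.32 in glucose, both called. Of all tested gene models, 2.00% had a higher log2 difference than ClrB in GlcNAc and 1.93% had one in glucose. By absolute size, 5.62% in GlcNAc and 5.81% in glucose had a larger difference than ClrB. The shares by absolute size, in the same order of media, were 13% and 57.7% for CreA, 29.7% and 56% for XlnR, and 46.2% and 25% for AmyR. In bran plus cellulose ClrB had 121, 117 and 118 FPKM in deletion libraries, against 115, 119 and 81.5 FPKM in wild-type libraries, where replicate 3 was the low library. The ranges overlapped, and the log2 difference was 0.19 with a 95% interval from −0.05 to 0.43 (limma adjusted p = 0.234), or 0.02 without that library.

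On glucose ClrB stood nearer to its level on bran plus cellulose in the deletion strain than in wild type, by the test of the difference given further on. The comparison of bran plus cellulose with glucose gave means of 118 ± 2.06 and 89.5 ± 9.41 FPKM in the deletion strain (log2 difference 0.40 ± 0.113, limma adjusted p = 0.00575). In wild type the same comparison gave 105 ± 20.5 and 14.8 ± 0.502 FPKM, a log2 difference of 2.73 ± 0.113 (limma adjusted p = 8.21e-11) and 2.90 without wild-type replicate 3 of bran plus cellulose. In wild type 1.70% of tested gene models had a larger absolute difference. GlcNAc lay below glucose in both strains, by −0.75 ± 0.113 in the deletion strain and −0.97 ± 0.113 in wild type (limma adjusted p = 2.9e-05 and 3.85e-06). Bran plus cellulose against GlcNAc gave 1.15 ± 0.113 in the deletion strain and 3.70 ± 0.113 in wild type (limma adjusted p = 3.57e-07 and 1.17e-12).

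AmyR, the activator known for amylase genes, had the same order of media by group mean in both strains. Its wild-type difference between bran plus cellulose and glucose sat at the threshold, as given below. AmyR was higher in the deletion strain on both sugars. In glucose it had 311, 295 and 314 FPKM in deletion libraries, against 147, 162 and 159.9 FPKM in wild-type libraries. The means of 307 ± 10.5 FPKM in the deletion strain and 156 ± 8.28 FPKM in wild type differed 1.96-fold, and the log2 difference was 0.97 ± 0.173 (SE; limma adjusted p = 0.000176), or 0.77 relative to the median gene, still called. In GlcNAc it had 42.5, 28.9 and 24.5 FPKM in deletion libraries, against 19.0, 17.3 and 16.7 FPKM in wild-type libraries. The groups did not overlap, although the deletion libraries varied by a coefficient of variation of 29.3%, and the log2 difference was 0.78 ± 0.173 (limma adjusted p = 0.000798) and 0.54 relative to the median gene (limma adjusted p = 0.00961). On bran plus cellulose AmyR had 163, 147 and 171 FPKM in deletion libraries, against 115, 146 and 88.9 FPKM in wild-type libraries. The groups did not overlap, by a narrow margin, which made AmyR 1 of 4 regulators without overlap there, against 39.3% of tested gene models. The log2 difference was 0.48 ± 0.173 with a 95% interval from 0.11 to 0.85, and it just missed the threshold (limma adjusted p = 0.0535), with 0.30 without wild-type replicate 3 and 0.65 without wild-type replicate 2, where it was called (limma adjusted p = 0.0135).

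GlcNAc against glucose was the widest medium change of AmyR, with a log2 difference of −3.26 ± 0.173 in the deletion strain and −3.08 ± 0.173 in wild type (limma adjusted p = 2.86e-10 and 2.17e-09). Of all tested gene models, 5.22% had a larger absolute difference in the deletion strain and 1.93% in wild type. For AmyR bran plus cellulose against glucose gave −0.94 ± 0.173 in the deletion strain (limma adjusted p = 0.000249) and −0.45 ± 0.173 in wild type (limma adjusted p = 0.0452). The wild-type value sits at the threshold: without wild-type replicate 3 of bran plus cellulose it was −0.27 and not called (limma adjusted p = 0.204). Bran plus cellulose against GlcNAc gave 2.32 ± 0.173 in the deletion strain and 2.63 ± 0.173 in wild type (limma adjusted p = 1.98e-08 and 6.74e-09).

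**Figure D2:**
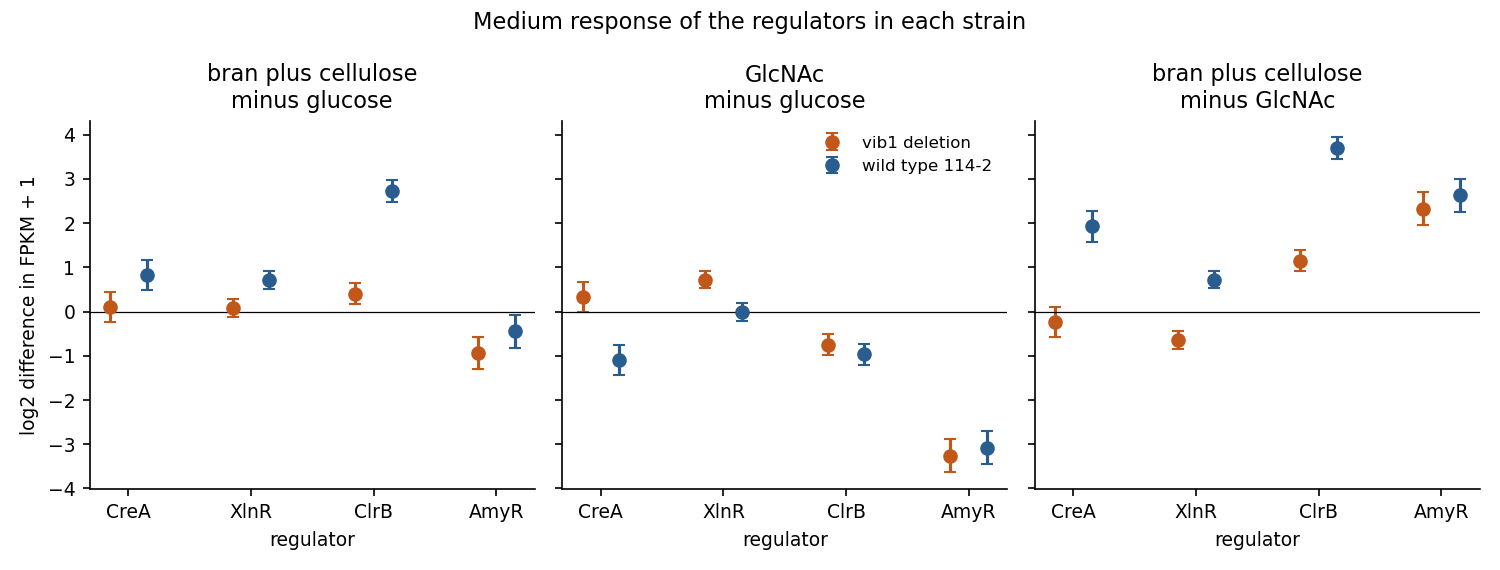
Log2 differences in FPKM + 1 between media for each regulator, with 95% intervals from the fit to 18 libraries, in the vib1 deletion strain (orange, left) and in wild type (blue, right). CreA, XlnR and ClrB differ between the strains in bran plus cellulose against glucose and against GlcNAc, while the 2 values of AmyR have overlapping intervals in all 3 panels.

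Counted over the medium comparisons, bran plus cellulose against glucose called 2 of 4 regulators in the deletion strain and 4 of 4 in wild type, where 62.6% and 48.3% of tested gene models were called. GlcNAc against glucose called 3 of 4 in each strain, where 68.7% of tested gene models were called in the deletion strain and 59.0% in wild type. Bran plus cellulose against GlcNAc called 3 of 4 in the deletion strain and 4 of 4 in wild type, where 69.1% and 60.8% of tested gene models were called. These counts lie near the share of all gene models in several comparisons, and the comparisons within a strain share libraries. The median of all gene models moved by 0.17 for GlcNAc against glucose and by −0.15 for bran plus cellulose against GlcNAc in the deletion strain, and by 0.14 for bran plus cellulose against glucose in wild type. Median-ratio rescaling changed no call of a regulator between media. Bran plus cellulose against GlcNAc in wild type gave 1.93 ± 0.160 for CreA (limma adjusted p = 8.11e-08). Without wild-type replicate 3 of bran plus cellulose this comparison gave 1.73 for CreA, 0.60 for XlnR, 3.87 for ClrB and 2.81 for AmyR, all called. Against glucose, the same omission left XlnR at 0.60 and called, and AmyR at −0.27 and not called, so that 3 of the 4 calls in wild type stayed.

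Whether the strain difference itself depended on the medium was tested as a difference of differences. For bran plus cellulose minus glucose 3 of 4 regulators were called (52.3% of tested gene models), for GlcNAc minus glucose 2 of 4 (59.3%), and for bran plus cellulose minus GlcNAc 3 of 4 (67.0%). For ClrB the deletion effect in bran plus cellulose minus that in glucose was −2.33 ± 0.159, and minus that in GlcNAc it was −2.55 ± 0.159 (limma adjusted p = 1.47e-08 and 3.56e-09). Without wild-type replicate 3 of bran plus cellulose these were −2.50 and −2.72 for ClrB, −0.54 and −1.96 for CreA, and −0.51 and −1.25 for XlnR, all called. The ClrB effects in GlcNAc and glucose differed by 0.22, with a 95% interval from −0.12 to 0.56 (limma adjusted p = 0.245). For CreA the effect in GlcNAc exceeded that in glucose by 1.42 ± 0.226 (limma adjusted p = 7.37e-05), and for XlnR by 0.73 ± 0.132 (limma adjusted p = 0.000228). The CreA effect in bran plus cellulose minus that in glucose was −0.73 ± 0.226 (limma adjusted p = 0.0136), and −0.54 and not called after median-ratio rescaling (limma adjusted p = 0.0781). AmyR was called in none of the 3, with 95% intervals from −1.01 to 0.04, from −0.71 to 0.34 and from −0.83 to 0.22 for the tests in the order above (limma adjusted p = 0.11, 0.542 and 0.287). The first of these was −0.67 and called without wild-type replicate 3 of bran plus cellulose (limma adjusted p = 0.0216). Without that library the last was −0.48 and not called (limma adjusted p = 0.0702).

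**Figure D3:**
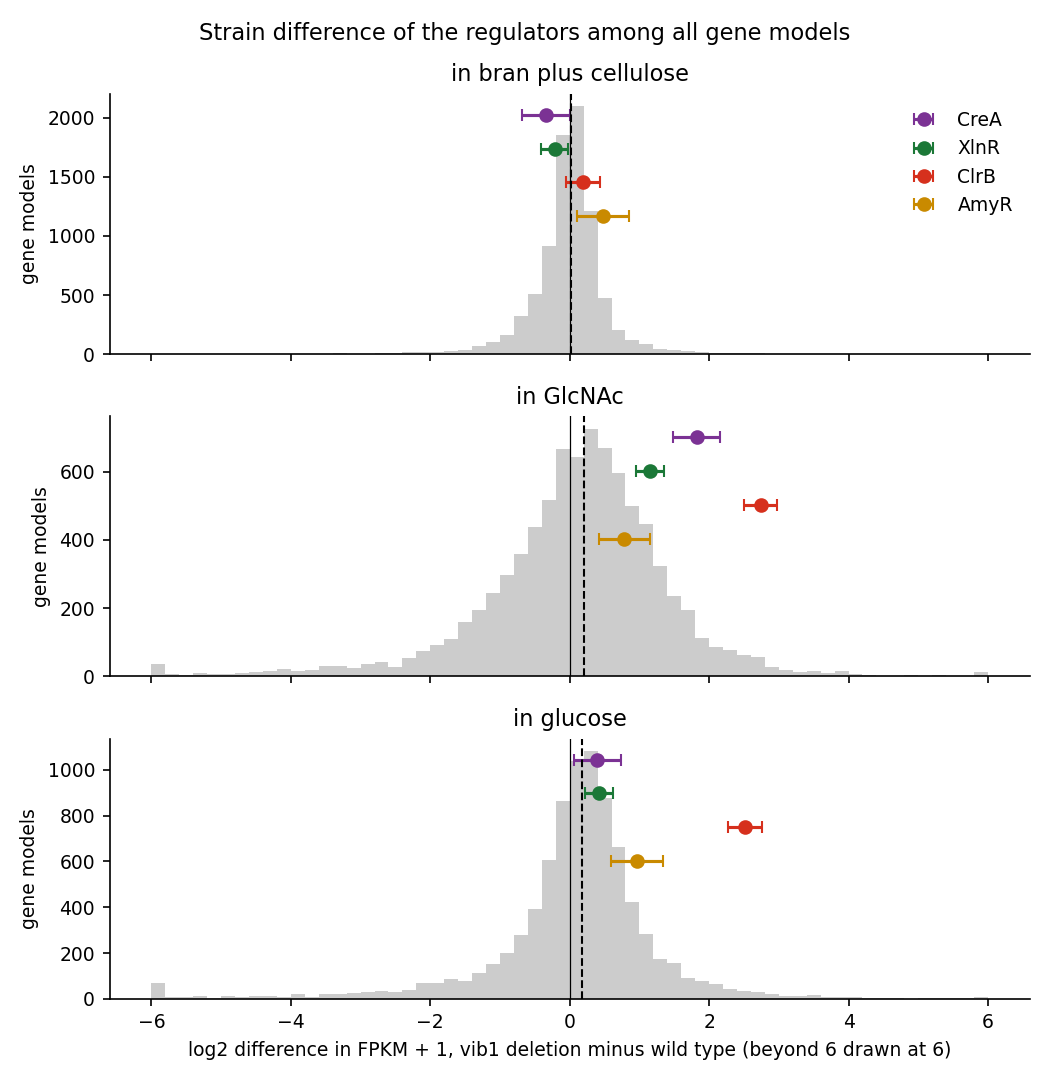
Log2 difference in FPKM + 1, vib1 deletion minus wild type, of the 4 regulators (points with 95% intervals, stacked for legibility) over the histogram of all 8455 tested gene models in each medium; the dashed line is the median gene model, and values beyond −6 or 6 are drawn at the edge. ClrB lies far in the right tail in GlcNAc (2.74) and glucose (2.52), and in bran plus cellulose the 4 lie between −0.34 and 0.48.

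Ordered by mean, CreA was highest in wild type on bran plus cellulose. The deletion strain on GlcNAc, on bran plus cellulose and on glucose followed, then wild type on glucose and on GlcNAc. The first place rests on wild-type replicate 3: without it wild type on bran plus cellulose averaged 523 FPKM over 2 libraries and came after the deletion strain on GlcNAc with 559 FPKM. The ranges of neighbours overlapped among the first 4 of these groups, and the wild-type groups on the sugars stood below them and apart from each other. XlnR was highest in the deletion strain on GlcNAc. Wild type and the deletion strain on bran plus cellulose followed and overlapped, then the deletion strain on glucose, just below. XlnR was lowest in wild type on glucose and on GlcNAc, which overlapped. ClrB was highest in bran plus cellulose in both strains, which overlapped each other. Wild type on bran plus cellulose also overlapped the deletion strain on glucose, through replicate 3 alone, and the next 3 groups were separate. Without that library the order of XlnR, ClrB and AmyR was as given, and ClrB on bran plus cellulose in wild type lay above the deletion strain on glucose with no overlap. For AmyR the deletion strain on glucose came first. The deletion strain on bran plus cellulose and wild type on glucose overlapped, and the last 3 groups were separate. From the highest to the lowest group mean the levels spanned 17.4-fold for AmyR, 16.8-fold for ClrB, 3.90-fold for CreA and 2.31-fold for XlnR. On the log2 scale the range over the 6 groups was 4.04 for AmyR, 3.89 for ClrB, 1.93 for CreA and 1.15 for XlnR, and the median range of all tested gene models was 1.30. Without wild-type replicate 3 of bran plus cellulose the range of CreA was 1.82, its span was 3.56-fold, and the median range was 1.29.

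Within a library the ratio of 2 regulators is free of any factor common to the library, so it does not depend on how libraries are scaled against each other. The ratios are of FPKM, a level per gene length, and carry no test. In glucose the ratio of ClrB to CreA was 0.205 ± 0.0493 in the deletion strain and 0.0442 ± 0.00697 in wild type (SD, n = 3 each), 4.64 times as high. In GlcNAc it was 0.0951 ± 0.0101 in the deletion strain and 0.0449 ± 0.00235 in wild type, 2.12 times as high. Libraries of the 2 strains did not overlap in either sugar, and wild type had nearly the same ratio on both. On bran plus cellulose the ratio was 0.250 ± 0.0290 in the deletion strain and 0.183 ± 0.0693 in wild type, with overlap, and the lowest wild-type value, 0.103, was that of replicate 3.

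The ratio of AmyR to CreA went in opposite directions on the 2 sugars. In glucose it was 0.696 ± 0.0927 in the deletion strain and 0.469 ± 0.0753 in wild type, and in GlcNAc it was 0.0574 ± 0.0169 in the deletion strain and 0.113 ± 0.0108 in wild type, without overlap in either medium. On bran plus cellulose it was 0.340 ± 0.0530 in the deletion strain and 0.204 ± 0.0834 in wild type, with the lowest deletion library at 0.279 and the highest wild-type library at 0.276. In GlcNAc both genes were higher in the deletion strain, and CreA by the larger factor. The ratio of XlnR to CreA in glucose was 0.0423 ± 0.00636 in the deletion strain and 0.0411 ± 0.00692 in wild type, with overlap. In GlcNAc it was 0.0568 ± 0.00820 in the deletion strain and 0.0867 ± 0.00404 in wild type, without overlap. On bran plus cellulose it was 0.0419 ± 0.00638 in the deletion strain and 0.0387 ± 0.00442 in wild type, with overlap. The ratio of AmyR to ClrB in glucose was 3.46 ± 0.434 in the deletion strain and 10.6 ± 0.214 in wild type. In GlcNAc it was 0.605 ± 0.175 in the deletion strain and 2.52 ± 0.297 in wild type. On bran plus cellulose it went the other way, with 1.35 ± 0.0943 in the deletion strain and 1.11 ± 0.114 in wild type. Libraries of the strains did not overlap in any of these media.

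**Figure D4:**
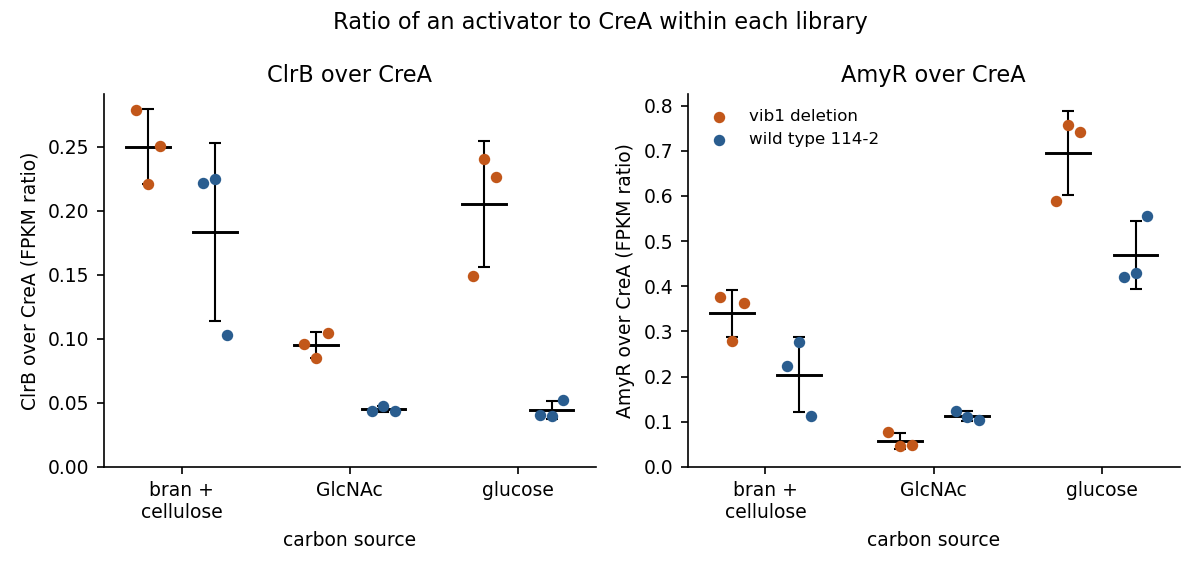
Ratio of ClrB to CreA (left) and of AmyR to CreA (right) in FPKM within each library, by carbon source, with vib1 deletion libraries in orange left of wild-type libraries in blue; lines are means and bars SD (n = 3). The ratio of ClrB to CreA is higher in the deletion strain on both sugars, and that of AmyR to CreA is higher in glucose and lower in GlcNAc.

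The gene models with the pattern most like each regulator were sought by Pearson r of log2(FPKM + 1) over the 18 libraries, among 6655 others with a mean of at least 10 FPKM. The libraries form 6 groups, so r is a measure of likeness only, and the files give these locus tags no function. Since the gene models were picked by this likeness, a shared pattern in their levels follows from the choice. For CreA they were PDE_09855 (r = 0.973) and PDE_00852 (r = 0.952), and 26 gene models reached an r of 0.9. In GlcNAc PDE_09855 averaged 71.5 ± 8.61 FPKM in the deletion strain and 15.4 ± 1.44 FPKM in wild type. For XlnR they were PDE_03421 (r = 0.973) and PDE_05764 (r = 0.968), with 58 gene models at 0.9 or more. In GlcNAc PDE_03421 averaged 46.2 ± 3.56 FPKM in the deletion strain and 7.24 ± 0.258 FPKM in wild type.

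For ClrB the most similar gene models were PDE_07523 (r = 0.987) and PDE_00753 (r = 0.977), and 59 reached 0.9. PDE_07523, the closest, had a smaller strain difference on the sugars than ClrB. Its levels in glucose were 174 ± 12.9 FPKM in the deletion strain and 94.5 ± 1.64 FPKM in wild type. In GlcNAc they were 158 ± 8.52 FPKM in the deletion strain and 72.0 ± 2.41 FPKM in wild type. In glucose PDE_00753 had 315 ± 56.9 FPKM in the deletion strain and 47.1 ± 4.58 FPKM in wild type. On bran plus cellulose PDE_00753 had 769.8 ± 44.6 FPKM in the deletion strain and 679 ± 126 FPKM in wild type. For AmyR they were PDE_04767 (r = 0.974) and PDE_01852 (r = 0.972), and 83 reached 0.9. In glucose PDE_04767 had 378 ± 22.8 FPKM in the deletion strain and 228 ± 3.38 FPKM in wild type. In GlcNAc it had 28.1 ± 1.87 FPKM in the deletion strain and 27.0 ± 0.807 FPKM in wild type.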

How the data were processed

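Total RNA of 18 mycelial samples was used to make tag libraries: per the labels' protocols, poly(A) RNA was captured with oligo(dT), and NlaIII and MmeI were used to release short tags from the cDNA for Illumina sequencing. The authors deposited 1 table of FPKM, per the file headers, with 9146 PDE and 30 XLOC gene models. Aligner, quantifier, build and gene lengths: not given in the sources used here. Scaling by length bears on levels set between genes, more so for tags, which sample few sites of a transcript, and leaves one gene comparable between libraries.

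Of 9176 gene models, 8455 reached 1 FPKM in 3 or more libraries and were tested, all 4 regulators among them. One mean per group was fitted to log2(FPKM + 1) with limma 3.58.1 in R 4.3.3 (eBayes, trend and robust set, with 12 residual degrees of freedom). The scale understates changes of low genes. P-values were two-sided and were adjusted by Benjamini-Hochberg over all tested gene models in each of 12 comparisons, and intervals are 95% intervals of that fit. Plots were drawn with matplotlib 3.10.9.

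Alternatives were other pseudocounts, filters and scalings, limma without trend and robust, only the groups compared, a replicate block and leaving out each library. Named gene models beside the regulators are, for each, the 2 most correlated ones. The regulators and tests were chosen with earlier results of these data known. None of the locus tags matched the reference gene table used here (assembly ASM172317v3), so no sequence, coordinate or list of target genes is given.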

Additional observations from a re-analysis of the deposited data

Results flagged for a closer look

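The deletion effect (vib1 deletion minus wild type, log2) differed between media in any of the 3 tests of the difference itself for 3 of the 4 regulators. The values are for limma with adjustment over all tested gene models. Each single test was passed by 52.3% to 67.0% of all tested gene models. The share that passed any of the 3 was not computed and cannot be below 67.0%.

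ClrB differed by −2.33 ± 0.159 (SE) between bran plus cellulose and glucose, and by −2.55 ± 0.159 between bran plus cellulose and GlcNAc. CreA differed by −0.73 ± 0.226 between bran plus cellulose and glucose (limma adjusted p = 0.0136), by 1.42 ± 0.226 between GlcNAc and glucose and by −2.16 ± 0.226 between bran plus cellulose and GlcNAc (limma adjusted p = 8.49e-07). After median-ratio rescaling the first CreA value was −0.54 and not called (limma adjusted p = 0.0781). XlnR differed by −0.64 ± 0.132 between bran plus cellulose and glucose (limma adjusted p = 0.000941), by 0.73 ± 0.132 between GlcNAc and glucose and by −1.37 ± 0.132 between bran plus cellulose and GlcNAc (limma adjusted p = 3.52e-07).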

How the results depend on the processing

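Of 1296 refitted values of 48 regulator results, 1256 kept their direction and their side of the threshold, 26 lost the call, 10 gained one and 4 changed sign. The ClrB calls and the strain calls in GlcNAc were kept under every alternative run. Median-ratio rescaling ended the call of CreA (0.20) and XlnR (0.23) in glucose between strains, and of the CreA difference between bran plus cellulose and glucose effects (−0.54, limma adjusted p = 0.0781). Rescaling to the same total turned the uncalled CreA and XlnR differences between bran plus cellulose and glucose in the deletion strain to −0.038 and −0.048, and called the AmyR difference between bran plus cellulose and glucose effects (−0.64, limma adjusted p = 0.0329). A pseudocount of 5 called AmyR between strains in bran plus cellulose (0.47, limma adjusted p = 0.0435). AmyR in wild type, bran plus cellulose against glucose (−0.45), was not called without trend and robust or with only the groups compared, and that fit also lost CreA in glucose between strains (0.40, limma adjusted p = 0.0622) and called 1248 gene models in place of 2258 between strains in bran plus cellulose. The cause was not tested.

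The replicate block lost CreA in glucose between strains (0.40, limma adjusted p = 0.0573) and no other call. Same-numbered libraries of the 2 strains deviated with correlations from −0.107 to 0.179, and differently numbered ones from −0.164 to 0.121. Correlations of deviations from means of 3 libraries cannot decide whether cultures were paired by number.

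Leaving out single libraries gave 0.27 to 0.49 for CreA in glucose between strains, not called without deletion replicate 1 (0.27) or 3 (0.43) or wild-type replicate 1 (0.43) or 3 (0.29) of glucose. The ranges were −0.32 to −0.10 for XlnR and 0.30 to 0.65 for AmyR between strains in bran plus cellulose, and −0.62 to −0.27 for AmyR in wild type, bran plus cellulose against glucose, where 15 of 18 fits lost the call. They were 0.23 to 0.45 for CreA in the deletion strain, GlcNAc against glucose, and −0.67 to −0.31 for AmyR in the difference between bran plus cellulose and glucose effects. XlnR in wild type, GlcNAc against glucose, ranged from −0.051 to 0.030. Leaving out a library of another group leaves a log2 difference as it is. It changes the shared spread, and it can change which gene models are tested and the adjusted p-values. Read depth is unknown, so no counting limit can be given.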
